A study of Sus scrofa with 12 samples.

Results

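The valve proteoglycan genes VCAN, ACAN, DCN, BGN, LUM, FMOD, OGN, PRELP and ASPN and the hyaluronan synthase gene HAS2 were followed in paVICs, the interstitial cells of the pig aortic valve. These 10 genes were chosen by name from the 31908 genes of the count table. Of them, 9 carry their own symbol in the table, and HAS2 was matched by its identifier (ENSSSCG00000005992), which the table lists as SHAS2. All 10 passed the filter on low counts, as did 13216 genes in all.

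Proteoglycans are proteins that typically carry long sulfated sugar chains. In the valve leaflet the large ones, the lecticans, bind hyaluronan and hold water, which cushions the leaflet, while the small leucine-rich proteoglycans (SLRPs) sit on collagen fibrils and set their thickness and spacing. Valve interstitial cells make both kinds, and disordered proteoglycan deposition is a known feature of diseased valves.

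Poly-A RNA of wild-type paVICs was sequenced after 24 h in low-serum medium with 1% bovine growth serum. The 4 groups (n = 3 each) were vehicle (0.6% DMSO and 0.1% ethanol), LPC (10 µM lysophosphatidylcholine, a lipid that drives calcific nodule formation by these cells), dantrolene (60 µM, a blocker of ryanodine receptors, the calcium release channels of the endoplasmic reticulum) and LPC + dantrolene (10 µM and 60 µM). All groups held the same amounts of DMSO and ethanol. The cells had been frozen after isolation and were expanded on plastic before treatment, and each isolation pooled valves from several hearts. Replicates with the same number were taken to come from the same isolation. The comparisons ask what each agent did to these genes and whether dantrolene altered the response to LPC.

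Total counts ranged from 16489684 to 24105935 per library, which puts a floor of 3 counts at 0.114 to 0.186 CPM (counts scaled by library size) and takes in counting error alone. The valve interstitial markers were abundant, with all 10 of 10 tested and a summed level of 58565 to 111553 CPM. Of the 6 leukocyte and macrophage markers, PTPRC, CD3E and LYZ were at 0 in all 12 libraries and CSF1R at 0 to 1.24 CPM, but CD14 was present at 10.3 to 24.5 CPM (201 to 451 counts) and CD68 at 0.760 to 3.17 CPM, and their sum was 16.3 to 23.8 CPM with vehicle and 12.4 to 28.5 CPM in the treated libraries. Of the 5 chondrocyte markers, COL11A2 and MATN1 were at 0 in all libraries and COL2A1 and COL9A1 at 0 to 0.930 and 0 to 0.109 CPM, but the transcription factor SOX9 was present at 19.7 to 56.2 CPM (457 to 1026 counts). Among the endothelial markers 6 of 7 were tested, and their sum was 84.0 to 87.5 CPM with vehicle and 47.8 to 71.2 CPM in the treated libraries. The smooth muscle markers (4 of 4 tested) summed to 1876 to 3566 CPM with vehicle and to 805 to 3105 CPM in the treated libraries. Replicate 2 of LPC + dantrolene stood apart, with a mean correlation of 0.909 with its group against 0.937 to 0.974 for the other 11 libraries. Its level of CYP1A1, a detoxification enzyme, was 22.6 CPM, within the 13.5 to 53.0 CPM of the other 5 libraries with dantrolene and above the 0 to 0.615 CPM of the 6 without. For the related CYP1B1 it was 385 CPM, below the 769 to 2493 CPM of those 5 and above the 4.88 to 60.1 CPM of those 6. The members' changes with LPC + dantrolene against vehicle are therefore given with and without this library.

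LPC upregulated 3 SLRP genes, ASPN, LUM and OGN. Dantrolene raised LUM and OGN and lowered PRELP, and LPC + dantrolene raised LUM and OGN. ASPN differed in that its level with LPC + dantrolene was near that of vehicle and below that of LPC. DCN, BGN, FMOD, the lecticans VCAN and ACAN, and HAS2 passed the threshold in none of these comparisons. Calls are at a Benjamini-Hochberg adjusted p under 0.05 over all 13216 genes in edgeR's quasi-likelihood test, the source of every adjusted p below.

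**Figure D1:**
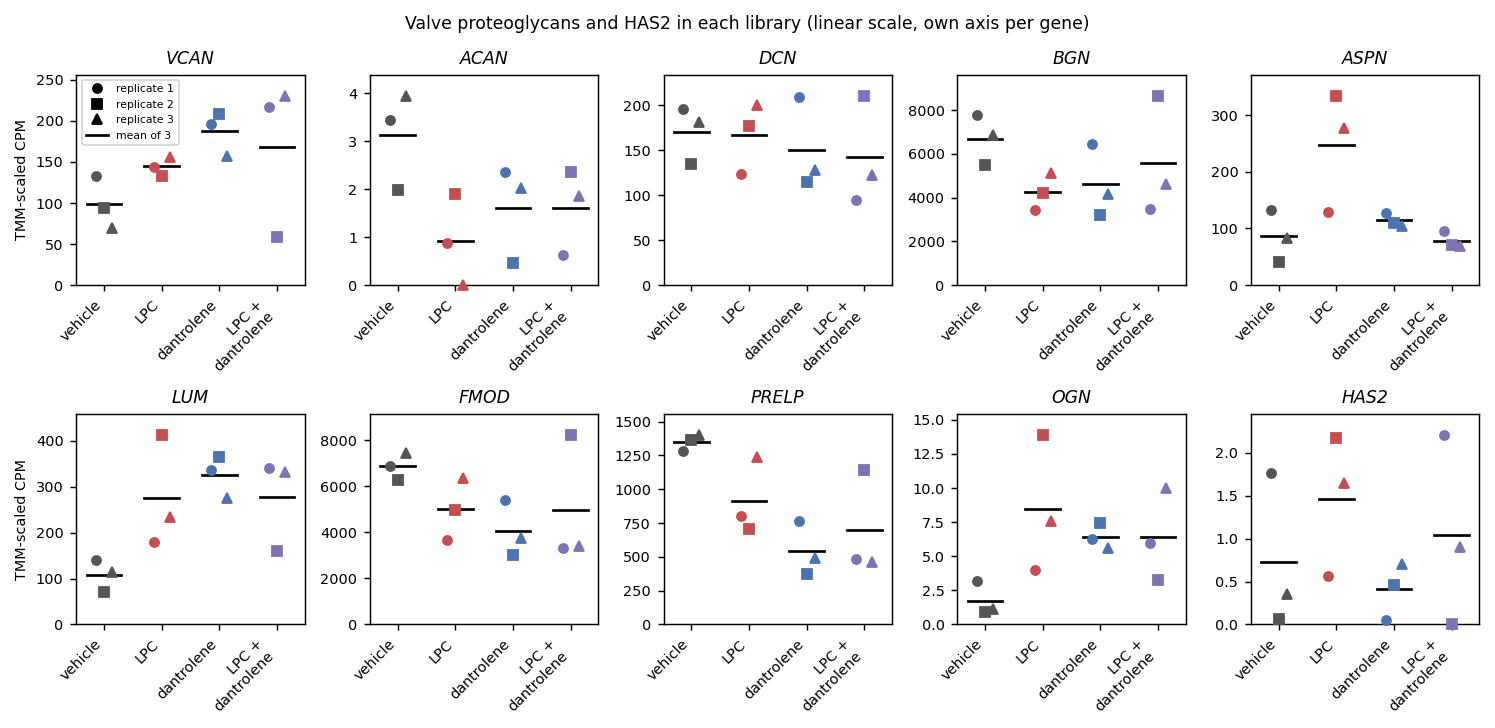
Level of each gene in each of the 12 libraries, as TMM-scaled CPM on a linear axis of its own. Points are libraries (shape marks the replicate) and black lines are means of 3. LUM and OGN lay above vehicle in every treated library, ASPN was highest in LPC replicate 2 (335 CPM), and replicate 2 of LPC + dantrolene gave the lowest VCAN value (58.6 CPM) and the highest BGN and FMOD values.

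With LPC, 3 of the 9 genes matched by symbol were upregulated and 0 downregulated, against 8.54% and 0.144% of all genes tested. At an unadjusted p under 0.05 ACAN was also lower, and DESeq2's Wald test called 3 and 0. With dantrolene 2 were upregulated and 1 downregulated, against 7.54% and 1.26% of all genes. With LPC + dantrolene 2 were upregulated and 0 downregulated, against 6.23% and 0.9% of all genes, with VCAN higher and PRELP lower at an unadjusted p under 0.05 and 2 and 0 calls in DESeq2's Wald test. The median log2 fold change of the 9 genes was −0.03, −0.18 and −0.26 in turn, beside −0.18, −0.11 and −0.08 over all genes tested. On total counts alone the medians of all genes were −0.0023, 0.13 and 0.12. The 3 comparisons share the vehicle libraries.

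ASPN (asporin) is a class I SLRP that binds collagen and can restrain TGF-β signaling. It lies on chromosome 3 at 42165553 to 42192902 (Sscrofa11.1). Its levels were 133, 41.2 and 83.2 CPM with vehicle, 130, 335 and 278 CPM with LPC, 128, 110 and 105 CPM with dantrolene, and 94.7, 70.0 and 69.8 CPM with LPC + dantrolene, in the order of replicates 1 to 3. LPC replicates 2 and 3 stood above every other library, while LPC replicate 1 fell within the vehicle range. The mean was 85.9 ± 46.1 CPM with vehicle and 247 ± 106 CPM with LPC (SD, n = 3). The log2 fold change with LPC was 1.53 (SE 0.35, adjusted p = 0.000857). It was 0.41 with dantrolene (adjusted p = 0.652) and −0.14 with LPC + dantrolene (adjusted p = 0.961), and the sign of the last turned to 0.09 on total counts alone. The call with LPC was lost without replicate 2 of vehicle (log2 fold change 1.19, adjusted p = 0.066) and without replicate 2 of LPC (1.25, adjusted p = 0.0597).

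Compared directly, ASPN was lower in LPC + dantrolene than in LPC (log2 fold change −1.66, SE 0.35, adjusted p = 0.00418). All 3 LPC + dantrolene libraries lay below all 3 LPC libraries, and the call held without replicate 2 of LPC + dantrolene. ASPN was the 1 of 9 genes that passed in this comparison, where 0.288% of all genes were downregulated, and 0 members were upregulated in edgeR or DESeq2. The other members, HAS2 included, had log2 fold changes between −0.48 and 0.80 and none had an unadjusted p under 0.05. The ASPN call was lost on total counts alone (−1.59, adjusted p = 0.0992), when the fit held these groups alone (−1.68, adjusted p = 0.0744) and without replicate 2 of LPC (−1.39, adjusted p = 0.278).

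LUM (lumican) is a class II SLRP with keratan sulfate chains that governs collagen fibril diameter. It lies on chromosome 5 at 91748871 to 91756381. Its levels were 140, 70.9 and 115 CPM with vehicle, 180, 413 and 235 CPM with LPC, 336, 366 and 275 CPM with dantrolene, and 340, 160 and 332 CPM with LPC + dantrolene. Every treated library exceeded every vehicle library. The means were 108 ± 34.8, 276 ± 122, 326 ± 46.0 and 277 ± 102 CPM in the same order (SD, n = 3). The log2 fold changes against vehicle were 1.35 with LPC (SE 0.34, adjusted p = 0.00351), 1.59 with dantrolene (SE 0.34, adjusted p = 0.000608) and 1.35 with LPC + dantrolene (SE 0.34, adjusted p = 0.0042). The call with dantrolene held under all 19 alternatives. That with LPC was lost without replicate 2 of vehicle (1.12, adjusted p = 0.107) and without replicate 2 of LPC (0.94, adjusted p = 0.165), and that with LPC + dantrolene without replicate 2 of vehicle (1.12, adjusted p = 0.122).

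OGN (osteoglycin, also called mimecan) is a class III SLRP first found in bone, on chromosome 3 at 42116521 to 42135940. It was scarce in all groups. Its levels were 3.20, 0.876 and 1.104 CPM with vehicle (67, 15 and 19 counts), 3.996, 13.9 and 7.56 CPM with LPC, 6.24, 7.43 and 5.62 CPM with dantrolene, and 5.94, 3.23 and 10.0 CPM with LPC + dantrolene. As for LUM, no treated library overlapped vehicle, although vehicle replicate 1 and LPC + dantrolene replicate 2 were close. Against vehicle the log2 fold changes were 2.28 with LPC (SE 0.46, adjusted p = 0.000144), 1.88 with dantrolene (SE 0.45, adjusted p = 0.0022) and 1.87 with LPC + dantrolene (SE 0.45, adjusted p = 0.0025). The call with LPC held under all 19 alternatives, but only narrowly without replicate 2 of LPC (1.73, adjusted p = 0.0493). Without replicate 2 of vehicle the adjusted p was 0.0691 with dantrolene and 0.0787 with LPC + dantrolene (log2 fold changes of 1.57 and 1.56), and without replicate 3 of LPC + dantrolene it was 0.0813 (1.40).

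PRELP (prolargin) is a class II SLRP that links basement membranes to collagen, on chromosome 9 at 64190978 to 64207008. Its levels were 1282, 1368 and 1402 CPM with vehicle, 799, 704 and 1236 CPM with LPC, 764, 371 and 488 CPM with dantrolene, and 482, 1142 and 463 CPM with LPC + dantrolene. Every vehicle library exceeded every treated one, and vehicle stood at 1351 ± 61.8 CPM (SD, n = 3). With dantrolene the mean was 541 ± 202 CPM, a log2 fold change of −1.32 (SE 0.35, adjusted p = 0.00584). Changes of −0.56 with LPC and −0.96 with LPC + dantrolene did not pass (adjusted p = 0.476 and 0.0807). The call with dantrolene was lost without replicate 2 of dantrolene (−1.11, adjusted p = 0.125), and without replicate 2 of LPC + dantrolene the change in that group passed (−1.46, adjusted p = 0.000362).

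**Figure D2:**
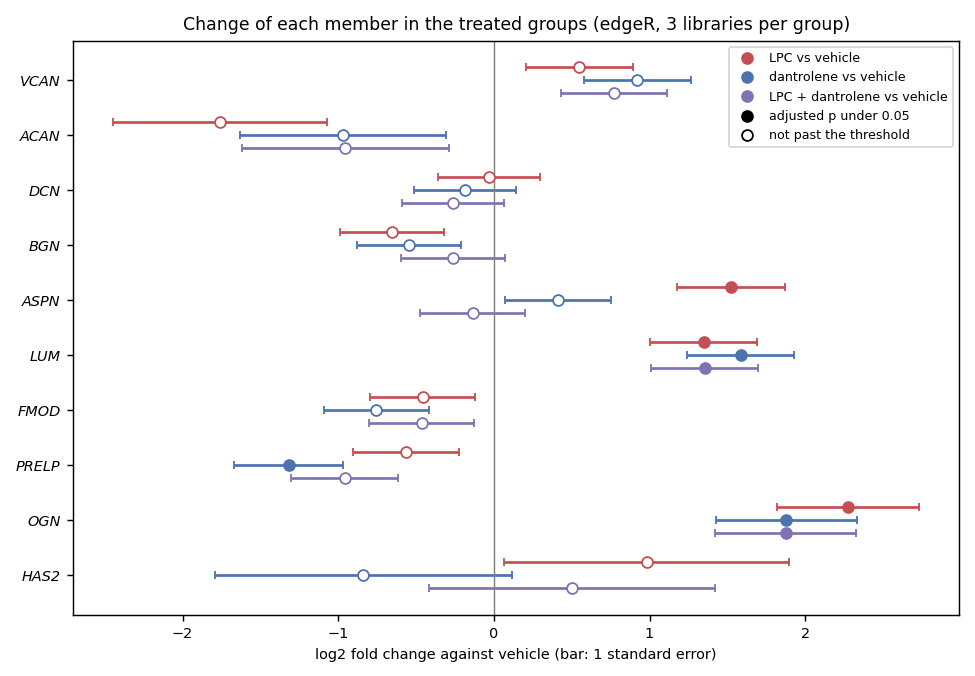
Log2 fold change of each gene against vehicle in the 3 treated groups, with 1 standard error; filled points have an adjusted p under 0.05. LUM and OGN are filled in all 3 comparisons, ASPN with LPC and PRELP with dantrolene. The intervals of ACAN and HAS2 are the widest, with standard errors of 0.66 to 0.95.

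FMOD (fibromodulin), a class II SLRP that competes with lumican for collagen, lies beside PRELP on chromosome 9 at 64062995 to 64073853. It measured 6895, 6290 and 7460 CPM with vehicle, 3674, 4989 and 6369 CPM with LPC, 5424, 3038 and 3777 CPM with dantrolene, and 3333, 8241 and 3401 CPM with LPC + dantrolene. All dantrolene libraries lay below all vehicle libraries, and LPC overlapped vehicle in its replicate 3. Its log2 fold changes were −0.46, −0.75 and −0.46, and none passed (adjusted p = 0.575, 0.202 and 0.675). The change with dantrolene passed when the fit held only dantrolene and vehicle (−0.76, adjusted p = 0.0463), and that with LPC + dantrolene passed without its replicate 2 (−0.97, adjusted p = 0.0172).

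BGN (biglycan), a class I SLRP with chondroitin or dermatan sulfate chains, on chromosome X at 124282048 to 124295450, measured 7795, 5474 and 6857 CPM with vehicle and 3430, 4206 and 5137 CPM with LPC. With dantrolene it measured 6443, 3196 and 4176 CPM, and with LPC + dantrolene 3484, 8672 and 4632 CPM. The LPC libraries lay below all vehicle libraries, whereas the other groups overlapped vehicle. The log2 fold changes were −0.66, −0.54 and −0.26 with adjusted p of 0.329, 0.471 and 0.898. DCN (decorin), the closest relative of biglycan and an organizer of collagen fibrils on chromosome 5 at 91678601 to 91713925, spanned 135 to 196 CPM with vehicle, 124 to 200 CPM with LPC, 114 to 209 CPM with dantrolene and 94.1 to 211 CPM with LPC + dantrolene. Its groups overlapped throughout, with log2 fold changes of −0.03, −0.18 and −0.26 (adjusted p = 0.967, 0.845 and 0.894). The first 2 turned positive on total counts alone (0.13 and 0.04).

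VCAN (versican), the main lectican of the valve and a scaffold for hyaluronan, lies on chromosome 2 at 91682177 to 91811674. It measured 133, 93.5 and 70.0 CPM with vehicle, 144, 133 and 156 CPM with LPC, 196, 209 and 157 CPM with dantrolene, and 217, 58.6 and 231 CPM with LPC + dantrolene. Of the 9 treated libraries, 8 exceeded all vehicle libraries (the closest at 133.4 against 133.1 CPM), and replicate 2 of LPC + dantrolene was the lowest of the 12. The log2 fold changes were 0.55 (SE 0.34, adjusted p = 0.491), 0.92 (SE 0.34, adjusted p = 0.0854) and 0.77 (SE 0.34, adjusted p = 0.227). Without replicate 2 of LPC + dantrolene, the change was 0.98 with dantrolene (adjusted p = 0.00453) and 1.23 with LPC + dantrolene (adjusted p = 0.000759). The dantrolene change also passed when the fit held only those groups (0.92, adjusted p = 0.0134) and with at least 10 counts required in every library (0.92, adjusted p = 0.0397).

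Without replicate 2 of LPC + dantrolene, 5 of the 9 genes passed in that group, with LUM, OGN and VCAN upregulated and PRELP and FMOD downregulated. The log2 fold changes of LUM and OGN were then 1.69 and 2.23 (adjusted p = 1.57e-05 and 4.55e-05). For the members that did not pass they were −0.0093 for ASPN, −0.67 for BGN, −0.61 for DCN, −1.27 for ACAN and 1.12 for HAS2 (adjusted p = 0.99, 0.144, 0.193, 0.276 and 0.454). The background rose as well on leaving it out. Over all genes the upregulated went from 824 of 13216 tested to 1706 of 13583, and the downregulated from 119 to 393.

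ACAN (aggrecan), the lectican of cartilage, lies on chromosome 7 at 54449830 to 54520606. It was scarce, with 72, 34 and 68 counts with vehicle and 17, 35 and 0 counts with LPC. These were 3.43, 1.99 and 3.95 CPM against 0.871, 1.90 and 0 CPM, with no overlap. The log2 fold change with LPC was −1.76 (SE 0.69, adjusted p = 0.115), and it passed when the fit held only those groups (−1.68, adjusted p = 0.0252). It was −1.17 without replicate 3 of LPC, the library at 0 counts, and −2.82 without replicate 2 of LPC (adjusted p = 0.485 and 0.0814). The other treated groups ranged from 0.457 to 2.36 CPM, with log2 fold changes of −0.97 and −0.95 (adjusted p = 0.547 and 0.645).

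HAS2, which makes the long hyaluronan chains to which lecticans bind, had between 0 and 42 counts per library. It measured 1.76, 0.0584 and 0.349 CPM with vehicle, 0.564, 2.17 and 1.65 CPM with LPC, 0.0547, 0.457 and 0.709 CPM with dantrolene, and 2.21, 0 and 0.903 CPM with LPC + dantrolene. Replicates of a group differed by more than the groups did, and 3 libraries were below the floor of 3 counts. The log2 fold changes of 0.98, −0.84 and 0.50 had standard errors of 0.92, 0.95 and 0.92 (adjusted p = 0.649, 0.754 and 0.942), and none passed. The value with LPC was 2.80 without replicate 1 of vehicle and 0.45 without its replicate 2, and the values with dantrolene and with LPC + dantrolene changed sign when single libraries were left out (ranges of −1.44 to 0.98 and −0.66 to 2.32).

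The effect of LPC differed with and without dantrolene for 3 of the 9 genes, all with a lower effect under dantrolene, against 4.49% of all genes. This interaction is the effect of LPC in the presence of dantrolene less its effect in the absence. It was −2.07 for ASPN (SE 0.48, adjusted p = 0.00398), −1.58 for LUM (SE 0.48, adjusted p = 0.0367) and −2.28 for OGN (SE 0.62, adjusted p = 0.0153). The levels behind it differed: for LUM and OGN, dantrolene alone had already raised the gene, whereas for ASPN the combination was back in the vehicle range. The uncalled members had interactions between −0.70 and 1.77 (lowest adjusted p 0.346). With the isolation as a replicate block, 1 of the 3 calls was left, and the adjusted p was 0.0978 for LUM and 0.085 for OGN. On total counts alone it was 0.0711 and 0.0769. All 3 were lost without replicate 2 of vehicle, of LPC or of dantrolene, where the adjusted p ranged from 0.0542 to 0.0958 for ASPN, 0.177 to 0.286 for LUM and 0.105 to 0.265 for OGN, and LUM was also lost without replicate 3 of vehicle (adjusted p = 0.0501). Over all genes, the interactions called lower fell from 593 to 217, 4 and 31 without replicate 2 of vehicle, LPC and dantrolene in turn.

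Between LPC + dantrolene and dantrolene alone, 0 of the 9 genes passed, against 0.0227% of all genes in either direction. No member had an unadjusted p under 0.05 in edgeR, DESeq2's Wald test called 0 as well, and the log2 fold changes of all 10 lay between −0.55 and 1.34.

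Several of these genes are neighbours in the pig genome. OGN, OMD, ASPN and ECM2 are the 4 protein-coding genes in a span of 127226 bases on chromosome 3, in that order. OMD encodes osteomodulin, a keratan sulfate SLRP, and ECM2 a leucine-rich matrix protein. OMD measured 4.63, 0.409 and 2.50 CPM with vehicle, 8.04, 10.3 and 6.74 CPM with LPC, 10.5, 9.22 and 5.62 CPM with dantrolene, and 7.79, 2.67 and 7.77 CPM with LPC + dantrolene. All LPC and all dantrolene libraries exceeded vehicle. ECM2 measured 17.3, 9.69 and 13.6 CPM with vehicle, 31.8, 63.1 and 49.0 CPM with LPC, 27.5, 32.8 and 26.4 CPM with dantrolene, and 28.7, 10.6 and 19.6 CPM with LPC + dantrolene.

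OMD was upregulated with LPC (log2 fold change 1.72, SE 0.45, adjusted p = 0.00452) and with dantrolene (1.74, SE 0.45, adjusted p = 0.00477), both calls being lost without replicate 2 of vehicle (adjusted p = 0.136 and 0.131) and the first without replicate 2 of LPC (0.135). ECM2 was upregulated with LPC under all 19 alternatives (1.82, SE 0.35, adjusted p = 8.36e-05). Its rise with dantrolene (1.09, SE 0.35, adjusted p = 0.0306) was lost with the replicate block (adjusted p = 0.0702) and when vehicle replicate 2 or 3, dantrolene replicate 2 or 3, or LPC replicate 2 was left out (adjusted p of 0.0595 to 0.264). The interaction was −2.19 for OMD (SE 0.62, adjusted p = 0.0211) and −2.38 for ECM2 (SE 0.49, adjusted p = 0.00133). For OMD this call was lost under 7 of 17 alternatives, among them total counts alone (adjusted p = 0.109), DESeq2's Wald test (0.0809) and leaving out replicate 2 of vehicle, replicate 1 or 2 of LPC, or replicate 1 or 2 of dantrolene (0.0532 to 0.222), and for ECM2 under 1 of 18, without replicate 2 of LPC (0.0731). As a description over the 12 libraries, which share depth and scaling, the log2 CPM values of these 4 genes correlated with Pearson's r of 0.653 to 0.883. All 4 neighbours thus passed with LPC, but the levels with LPC + dantrolene split, with 3 libraries inside the vehicle range for ASPN, 1 for OMD and ECM2, and 0 for OGN.

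**Figure D3:**
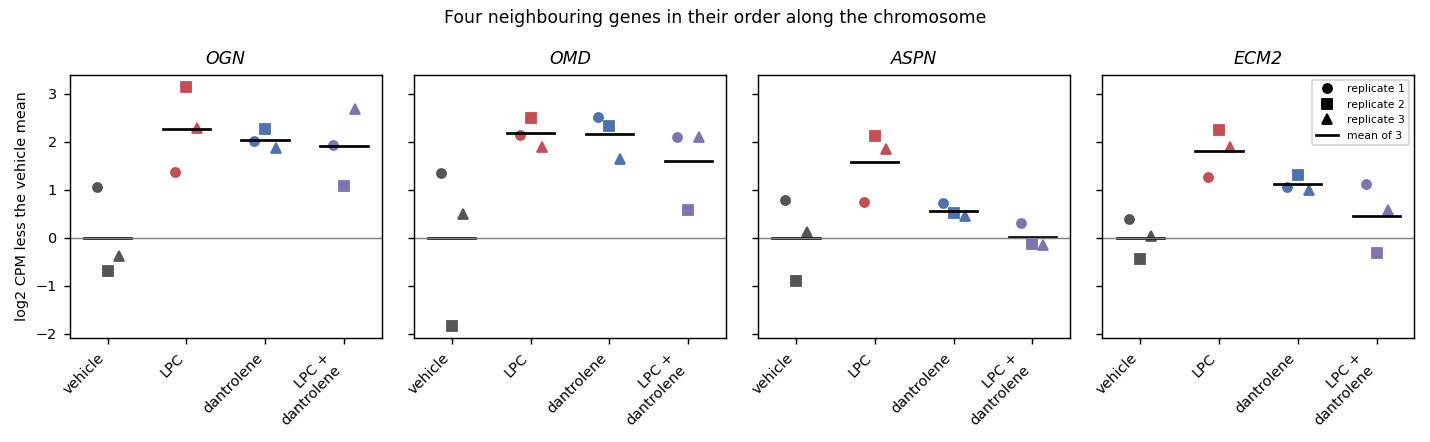
Log2 CPM of OGN, OMD, ASPN and ECM2 in each library, less the mean of the 3 vehicle libraries, with the genes in their order on chromosome 3. Shapes mark replicates and lines the mean of 3. With LPC all 4 genes lie above 0 in all 3 libraries. With LPC + dantrolene ASPN lies between −0.14 and 0.30.

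DCN and LUM lie next to each other on chromosome 5, with KERA and EPYC, in a span of 199179 bases. The ratio of LUM to DCN counts within a library, which no scaling can alter, was 0.525 to 0.713 with vehicle, 1.17 to 2.34 with LPC, 1.61 to 3.20 with dantrolene and 0.757 to 3.62 with LPC + dantrolene. No treated library overlapped vehicle. The mean log2 ratio was higher than vehicle by 1.36, 1.85 and 1.66. In each case the two-sided exact permutation p was 0.1, the smallest that 3 against 3 libraries allow (0.15 adjusted over the 12 ratio comparisons made). Without replicate 2 of LPC + dantrolene the last difference was 2.34.

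FMOD and PRELP lie with OPTC in a span of 157988 bases on chromosome 9, and both were at their lowest in treated libraries. The ratio of PRELP to FMOD was 0.186 to 0.217 with vehicle, 0.122 to 0.141 with dantrolene and 0.136 to 0.145 with LPC + dantrolene (exact permutation p = 0.1 each). Here replicate 2 of LPC + dantrolene, at 0.139, lay with its group, although its CPM of both genes stood apart. With LPC the ratio was 0.141 to 0.217 and overlapped vehicle (exact permutation p = 0.8). The ratio of ASPN to OGN was 41.7 to 75.4 with vehicle, 24.1 to 36.8 with LPC, 14.9 to 20.4 with dantrolene and 6.96 to 21.7 with LPC + dantrolene, without overlap (exact permutation p = 0.1 each). The ratio of BGN to FMOD, the pair on different chromosomes, overlapped vehicle in all groups (exact permutation p = 0.3 each).

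**Figure D4:**
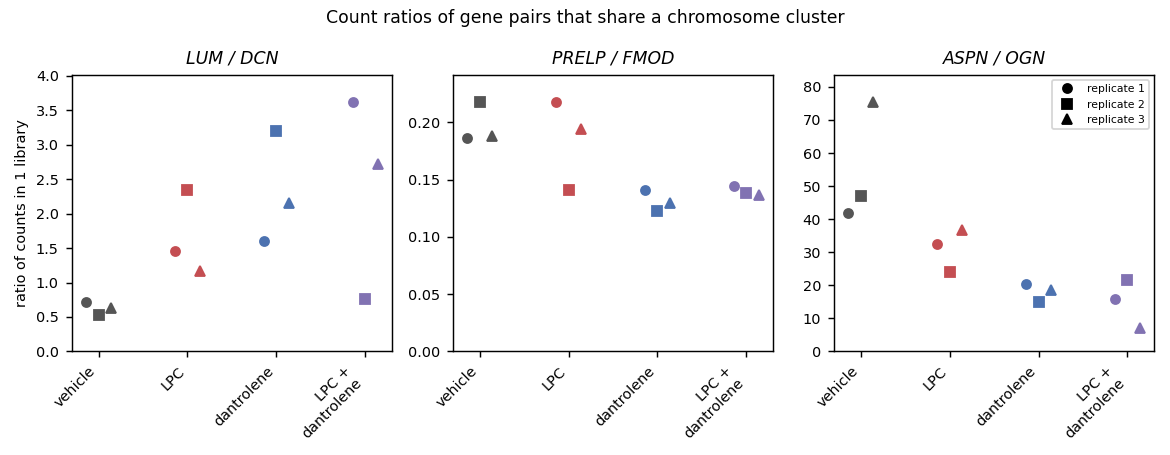
Ratio of counts of LUM to DCN, PRELP to FMOD and ASPN to OGN within each library, on linear axes from 0; shapes mark replicates. The vehicle libraries lie below all treated ones for LUM to DCN and above all treated ones for ASPN to OGN. For PRELP to FMOD they lie above all libraries with dantrolene.

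PRELP moved with the scaling factor of the library. The 5 libraries with a TMM factor of 0.863 to 0.923 (the 3 vehicle libraries, LPC replicate 3 and LPC + dantrolene replicate 2) held 1142 to 1402 CPM of PRELP, and the other 7, with factors of 1.01 to 1.15, held 371 to 799 CPM. On total counts alone the ranges were 985 to 1232 and 404 to 864 CPM. FMOD was likewise 6290 to 8241 CPM in the former and 3038 to 5424 CPM in the latter. For LUM the ranges were 70.9 to 235 and 180 to 413 CPM and overlapped. The summed valve interstitial markers were 84423 to 100410 CPM with vehicle, 63673 to 90189 CPM with LPC, 58565 to 78571 CPM with dantrolene and 60516 to 111553 CPM with LPC + dantrolene. Of the markers, POSTN was upregulated with LPC (1.60, adjusted p = 0.00188) and the endothelial gene CDH5 downregulated with dantrolene (−1.20, adjusted p = 0.0111). The part of library composition, and of other cells, in the members' results was not tested. In bulk RNA, fewer cells of a type and less RNA per cell cannot be told apart.

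**Figure D5:**
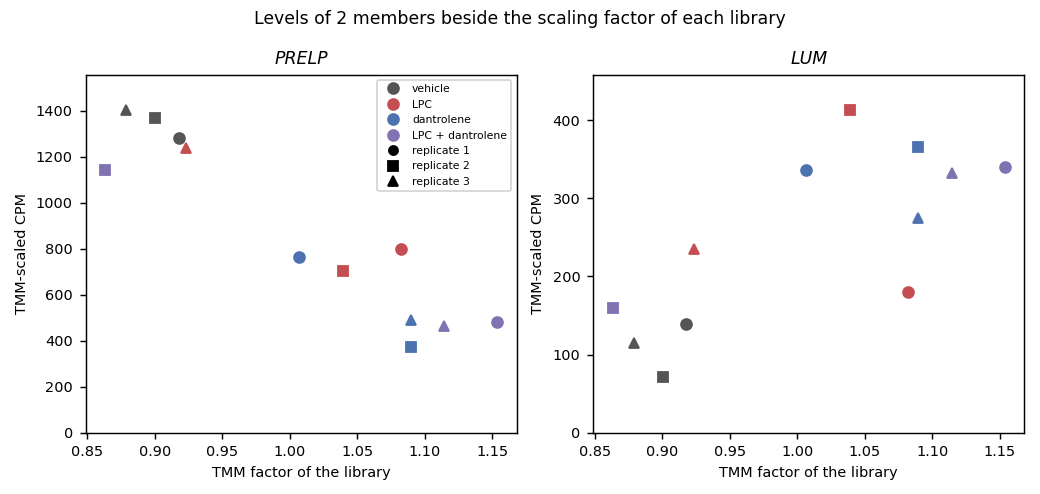
TMM-scaled CPM of PRELP and LUM in each library against the TMM factor of that library; colours mark groups and shapes replicates. The 5 libraries with factors up to 0.923 hold the 5 highest PRELP values. LUM is at 275 CPM or more only in libraries with factors of at least 1.01.

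Across the 12 libraries, as a description without a test, the genes whose log2 CPM most resembled that of the called members were LRCH2 and ITGA1 for ASPN (r = 0.901 and 0.897), ZNF570 and OGN for LUM (r = 0.950 and 0.939), SLF1 and CENPE for OGN (r = 0.967 and 0.966), and FBXL22 and LTBP2 for PRELP (r = 0.977 and 0.967). Among the members, LUM and OGN (r = 0.939), FMOD and PRELP (r = 0.920) and BGN and FMOD (r = 0.900) varied together. VCAN varied opposite to FMOD (r = −0.81) and LUM opposite to PRELP (r = −0.80). These points share libraries, scaling and groups.

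Of 90 listed genes that resemble, build, bind or cut these molecules, 73 were tested. With LPC 4 were upregulated and 0 downregulated, with dantrolene 4 and 1, and with LPC + dantrolene 2 and 0. The upregulated share was thus 5.48%, 5.48% and 2.74%, below the 8.54%, 7.54% and 6.23% of all genes, and the downregulated share was 0%, 1.37% and 0%, beside 0.144%, 1.26% and 0.9%. At an unadjusted p under 0.05 in edgeR these were 8 and 2, 6 and 7, and 7 and 4 of the 73. Over all 13216 genes tested they were 1726 and 373, 1611 and 535, and 1425 and 497 at that level. DESeq2's Wald test called 4 and 0, 3 and 0, and 2 and 0 of the listed genes. Their median log2 fold change was −0.22, −0.22 and −0.10 in turn, beside −0.18, −0.11 and −0.08 over all genes. OMD and ECM2 were the 2 of 8 tested other SLRPs and relatives upregulated with LPC and with dantrolene (25%, beside 8.54% and 7.54%). With LPC + dantrolene 0 of these 8 passed. The median log2 fold change of the 8 was −0.44, 0.10 and 0.05 in turn. Beside OMD and ECM2 the called genes were a pair of enzymes and a pair of proteases. With LPC, 0 of the 10 other lectican, link protein and hyaluronan-binding genes, 0 of 3 keratan sulfate enzymes and 0 of 11 heparan sulfate proteoglycans passed in edgeR or DESeq2 (1, 0 and 1 at an unadjusted p under 0.05).

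CSGALNACT2, which starts and extends chondroitin sulfate chains, was the 1 of 25 tested genes of chondroitin and dermatan sulfate synthesis that passed, with each agent and with both (4%, beside the 8.54%, 7.54% and 6.23% of all genes upregulated). It rose from 24.9, 14.4 and 11.3 CPM with vehicle to 39.4, 43.8 and 39.1 CPM with LPC (log2 fold change 1.27, adjusted p = 0.00819). It was 25.9, 41.6 and 37.1 CPM with dantrolene (1.04, adjusted p = 0.0423) and 43.8, 17.1 and 46.5 CPM with LPC + dantrolene (1.08, adjusted p = 0.0386, and 1.46 without its replicate 2). The last 2 calls were lost with the replicate block (adjusted p = 0.0854 and 0.116). All 3 were lost without replicate 2 or 3 of vehicle (adjusted p of 0.101 to 0.331), and under 3, 7 and 8 of the 19 alternatives in all.

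GFPT1, the rate-limiting enzyme of the pathway that supplies amino sugars for hyaluronan and other chains, was the 1 of 9 tested genes of hyaluronan synthesis and turnover that passed with LPC (beside 8.54% of all genes). It rose from 41.0, 31.9 and 25.5 CPM with vehicle to 84.5, 66.7 and 70.4 CPM with LPC (log2 fold change 1.17, adjusted p = 0.0121), with no overlap. GFPT1 measured 46.6, 64.3 and 56.2 CPM with dantrolene, all above vehicle, and 72.5, 27.9 and 72.5 CPM with LPC + dantrolene. Neither of these groups passed against vehicle. The call with LPC was lost without replicate 2 or 3 of vehicle or replicate 1 of LPC (adjusted p = 0.088, 0.115 and 0.0949).

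Of 7 tested genes of the versican- and aggrecan-cleaving proteases and their inhibitor, ADAMTS5 rose and ADAMTS1 fell with dantrolene. Of all genes, 7.54% were upregulated and 1.26% downregulated there. With LPC + dantrolene ADAMTS5 alone passed, beside 6.23% of all genes upregulated. ADAMTS5 had 43, 17 and 11 counts with vehicle and was at 2.05, 0.993 and 0.639 CPM. With LPC it was at 4.10, 3.58 and 2.26 CPM, all above vehicle, but did not pass. It reached 3.997, 2.97 and 4.80 CPM with dantrolene (log2 fold change 1.65, adjusted p = 0.0317) and 5.84, 0.808 and 7.52 CPM with LPC + dantrolene (1.93, adjusted p = 0.010, and 2.47 without its replicate 2). Both calls were lost with the replicate block (adjusted p = 0.075 and 0.0721), and under 10 and 7 of the 19 alternatives in all. The call with dantrolene was also lost in DESeq2's Wald test (adjusted p = 0.0657). ADAMTS1 went from 5.53, 16.7 and 10.8 CPM with vehicle to 3.89, 4.95 and 5.18 CPM with dantrolene (−1.23, adjusted p = 0.0334). This call was lost under 11 of 19 alternatives, among them RLE size factors, DESeq2's Wald test and the replicate block (adjusted p = 0.052, 0.114 and 0.114). ADAMTS1 was at 13.5, 6.19 and 17.7 CPM with LPC and 7.73, 7.77 and 3.06 CPM with LPC + dantrolene, and passed in neither.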

How the data were processed

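Poly-A RNA libraries of 12 paVIC samples were analysed. The authors aligned the reads (STAR in the study's methods, HISAT2 2.0.5 and build Sscrofa11.1 in the submitters' processing notes, which give no roles), adjusted the counts for batch with ComBat, and deposited whole-number counts per gene without scaling for depth. This adjustment pulls the isolation means together before any test, which may make adjusted p-values smaller than they should be. The deposited DESeq2 1.32.0 comparison tables (fold changes and p-values) were not used.

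The tests were run with edgeR 4.0.16 (R 4.3.3). Genes that passed filterByExpr were scaled with TMM and fitted in 1 quasi-likelihood model of the 4 groups, with Benjamini-Hochberg adjustment. CPM are TMM-scaled. Correlations used log2 CPM with a prior count of 2. Count ratios were compared by two-sided exact permutation on the log2 scale. The fitting was tested on simulated data. Alternatives were RLE factors, total counts alone, DESeq2 1.42.0, no filter, at least 10 counts in every library, a fit of the compared groups alone, a replicate block for the isolation, and each library left out. Leaving out libraries for the count ratios was chosen after seeing the data.

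The study's methods describe experiments on separate isolations, and the sample titles give replicate numbers alone. Samples with the same number were taken to share an isolation. The main fit was unpaired, with group as its only term, and the isolation entered only in the replicate block. Deviations from group means correlated with a median of −0.152 within isolations (range −0.536 to 0.207) and 0.108 between libraries of other isolations and groups, an outcome that ComBat fixes.

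The members and lists were chosen with earlier results of these data known. All members are named, with the related genes that passed in a comparison with vehicle or with LPC (at most 4 per list and comparison) and, for called members, the 2 genes with a symbol of highest correlation. Positions are from RefSeq annotation of Sscrofa11.1. HAS2 was absent from that annotation table and has no position here. Levels were not compared between genes, since transcript lengths were not used here. Strandedness of the counting was not given in the sources used here, so reads of overlapping antisense genes cannot be told apart.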

Additional observations from a re-analysis of the deposited data

Results flagged for a closer look

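The effect of LPC differed between cells with and without dantrolene, by the interaction term of the same edgeR fit, for 5 genes. The interaction was −2.07 for ASPN, −1.58 for LUM, −2.28 for OGN, −2.19 for OMD and −2.38 for ECM2 on the log2 scale, with adjusted p of 0.00398, 0.0367, 0.0153, 0.0211 and 0.00133 (edgeR's quasi-likelihood test). Of these, OGN, OMD, ASPN and ECM2 lie side by side on chromosome 3 and are not independent observations of the samples. LPC replicate 2 held the highest level of ASPN, LUM, OGN and ECM2 among the 12 libraries, and without it none of the 5 interactions passed (adjusted p of 0.0731 to 0.286). Over all genes, the interactions called lower fell from 593 to 4 without this library. With the isolation as a replicate block, those of LUM and OGN were lost (adjusted p = 0.0978 and 0.085), while ASPN, OMD and ECM2 passed (0.0302, 0.0486 and 0.0258). On total counts alone those of LUM, OGN and OMD were lost (0.0711, 0.0769 and 0.109), and in DESeq2's Wald test that of OMD was lost (0.0809).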

How the results depend on the processing

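For LPC, 3 members passed, and 1 to 3 passed when single libraries were left out. Over all genes 1129 were upregulated, but 712 and 668 without replicate 2 of vehicle and of LPC, the fits where 1 member passed. For dantrolene 3 passed, 2 to 4 with libraries left out and 5 with only the groups compared. In the last fit 1249 of all 12656 genes tested were upregulated and 290 downregulated, against 997 and 166 of 13216 in the main fit. For LPC + dantrolene 2 passed, and 0 to 5 with libraries left out, the 0 without replicate 2 of vehicle and the 5 without replicate 2 of LPC + dantrolene. Over all genes, 824 upregulated and 119 downregulated became 489 and 55 in the former fit and 1706 and 393 in the latter. Against LPC 1 passed, but 0 on total counts alone, 0 with only the groups compared and 0 to 1 with libraries left out. For the interaction 3 passed, but 1 on total counts alone, 1 with the replicate block and 0 to 3 with libraries left out. Of all genes, 593 interactions were called lower, but 232 on total counts alone and 277 with the replicate block. The replicate block changed no other call of the members. Leaving out a library or groups leaves fewer samples by construction, and the cause of the other changes was not tested.

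Among single genes, 763 values under alternatives kept direction and side of the threshold, 92 lost a call, 8 gained one and 15 changed sign, all 15 for values that had not passed. Only values that had passed can lose a call, so the 92 are a larger share of those than of all values. For DCN with LPC the log2 fold change was 0.0134 with RLE factors and with DESeq2, 0.125 on total counts, 0.045 with only the groups compared and −0.19 to 0.14 with libraries left out. On total counts it was 0.0413 for DCN with dantrolene and 0.0886 for ASPN with LPC + dantrolene, the latter ranging from −0.47 to 0.33 with libraries left out. HAS2 ranged from −1.44 to 0.98 with dantrolene and from −0.66 to 2.32 with LPC + dantrolene. Mean CPM moved by less than 1 SD in 198 of 200 alternatives, the exceptions being FMOD and PRELP with vehicle on total counts (6182 and 1214 CPM). Many of the 200 left out 1 library of the group itself, which by arithmetic cannot move the mean by 1 SD of that group. Only the alternatives with another scaling could have moved it so far, so 198 of 200 is no measure of how stable the means were. Of the ratio differences, 1 of 72 changed sign, PRELP to FMOD with LPC, which ranged from −0.25 to 0.0634. Among the members HAS2, ACAN and OGN had the fewest reads, with 0 to 256 counts per library.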
